A study of Mus musculus with 35 samples.

Results

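The comparison described here is the transcriptional change that Cre left in mouse embryonic fibroblasts (MEFs) that carried ectopic wild-type NELFB. It rests on 4 libraries of the 35 in the series, 2 of cells given Ad-Cre (WT-Cre) and 2 of cells given Ad-GFP (WT-GFP), chosen by construct and virus and paired by replicate number. All were immortalized MEFs of the genotype Nelfb flox/-, with 1 null and 1 floxed allele of Nelfb. They expressed Flag-tagged mouse wild-type NELFB from a lentiviral vector with a CMV promoter (WT) and were harvested 7 days after an adenovirus that delivered Cre and GFP (Ad-Cre) or GFP alone (Ad-GFP). The companion populations, used to estimate the spread between libraries and as a reference, had the same genotype, viruses and time, and carried an empty vector (EV) or NELFB with the changes MT194, MT486 or both (DMT), with 2 libraries per construct and virus. Each library came from a mixed population of infected cells, not from a clone. In WT-Cre, Cre was present and the floxed allele was its target, so an effect of Cre itself and one of losing the endogenous allele cannot be told apart here. Poly(A) RNA was read in counts per gene, with 22704317 and 21151468 reads on genes in WT-Cre and 18659036 and 22716417 in WT-GFP. Values are given below as CPM, normalized counts scaled to library size by TMM (edgeR's cpm), which do not correct for gene length, with replicate 1 named before replicate 2.

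NELFB is a subunit of the negative elongation factor (NELF), which holds RNA polymerase II shortly after the start of transcription until P-TEFb releases it. Such pausing is known at many promoters, among them those of genes that respond quickly to signals. Restoring the wild-type protein tests whether a change that follows Cre depends on NELFB, and a gene that still differs between Ad-Cre and Ad-GFP in the restored cells is the residue described here.

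Nelfb RNA itself, counted over the endogenous and ectopic transcripts alike, stood at 75.9 and 60.5 CPM in WT-Cre and at 97.5 and 82.8 CPM in WT-GFP. The groups did not overlap, with both WT-Cre libraries below both WT-GFP libraries. The log2 fold change was −0.40 (standard error 0.15) and did not pass, with an adjusted p of 0.135. This and every adjusted p given below comes from the quasi-likelihood test of edgeR, adjusted over all genes by the Benjamini-Hochberg method. In EV it fell by 2.67 on the log2 scale (adjusted p 8.14e-08), and the difference between WT and EV passed (2.27, adjusted p 4.89e-05). Over all genes that difference passed for 17.3%, with the value in WT above that in EV for 9.37% and below it for 7.93%. The other subunit genes, Nelfa, Nelfcd and Nelfe, had log2 fold changes of 0.14, 0.16 and 0.06 in WT, and none passed. Of 19 genes for NELF and the pausing machinery none passed in either direction by edgeR or DESeq2, 2 had an unadjusted p under 0.05 (22.5% of all genes tested did), and the median was 0.03.

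Of 13805 genes tested, 775 passed at an adjusted p under 0.05 in the paired comparison of WT-Cre with WT-GFP (5.61%), 325 higher (2.35%) and 450 lower (3.26%) with Ad-Cre. The pairing decides this count: without the replicate block 3 genes passed (0.0217%), Acta2, Cnn1 and Sprr1a, and 859 had an unadjusted p under 0.05, beside 3100 (22.5%) with the block. The changes were small. A log2 fold change over 1 was seen in 120 of the genes that passed (0.869%), 53 higher (0.384%) and 67 lower (0.485%), another 306 lay between 0.5 and 1, and 349 were at or below 0.5. The median size was 0.53 on the log2 scale, and the median over all genes tested was −0.01. Every gene that passed moved the same way in both pairs, as did 73.5% of all genes tested, and in 726 of the 775 the groups did not overlap, which was so for 38.1% of all genes tested. The 775 were selected by the paired test on these same libraries, so this is a description and not separate support. In the same fit 5935 genes passed in EV (43%), 2930 higher (21.2%) and 3005 lower (21.8%), and 3687 in MT194, 3204 in MT486 and 5625 in DMT, so that WT had the fewest of the 5 constructs. Each group had 2 samples, described by the study as independent experiments. The p-values measure the change against the spread between libraries within a group after the replicate shift, estimated over WT and the companion populations together. In bulk RNA, fewer cells of a type and less RNA per cell cannot be told apart.

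**Figure D1:**
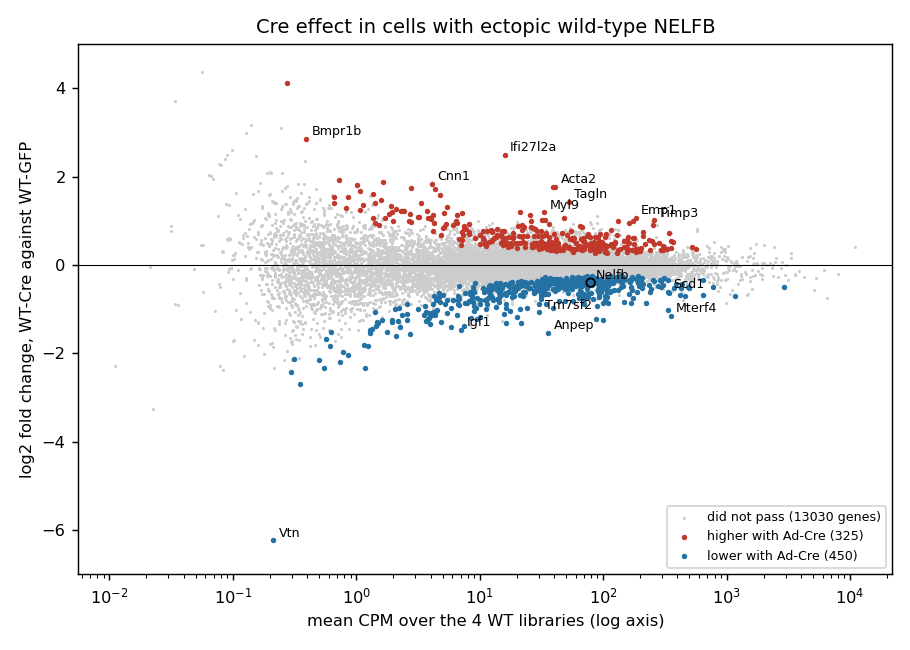
Log2 fold change of WT-Cre against WT-GFP (vertical axis) for the 13805 genes tested, by mean CPM over the 4 WT libraries (log axis). The 325 genes higher (red) and 450 lower (blue) with Ad-Cre lie mostly within 1 log2 unit of 0; the circle is Nelfb, which did not pass, and genes at the far left rest on few reads.

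How much each call rests on a library was examined by leaving out each of the 4 WT libraries. Without replicate 1 or 2 of WT-Cre, 449 and 105 genes passed, and without replicate 1 or 2 of WT-GFP, 325 and 49 passed. Those with a log2 fold change over 1 numbered 76, 33, 102 and 15 in the same order. In all 4 of these fits and in the full fit, 33 genes passed, 15 higher and 18 lower. The higher ones were Cnn1, Acta2, Sprr1a, Tagln, Myl9, Tuba8, Ccl5, Sdpr, Cav1, Samd4, Klf4, Plac8, Coro1c, Ifit2 and Samd9l. Among the lower ones were Synm, Stk32b, Tm7sf2, Aox1, Dclk2, Abca9, Unc13b, Dhcr7, Nrbp2, Itga6, Tle2, Rbak, Apbb3, Mmab, Ebf3, Pcyt2 and Osbpl8, a set named after its values were seen. Any other gene named below as having risen or fallen lost its call without at least 1 of the 4 WT libraries.

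Genes of the smooth-muscle contractile apparatus, many of them targets of serum response factor (SRF), held several of the largest increases. Acta2, which codes for smooth-muscle α-actin, lies on chromosome 19 from 34241090 to 34255590 (mm10, minus strand) and had 62.0 and 64.2 CPM in WT-Cre and 19.9 and 17.0 CPM in WT-GFP. Cnn1, for the actin-binding protein calponin, lies on chromosome 9 from 22099216 to 22109630 and had 5.63 and 7.16 CPM against 1.71 and 1.84 CPM. Tagln, for transgelin, had 78.5 and 74.1 CPM against 37.5 and 20.2 CPM. In each gene both WT-Cre libraries lay above both WT-GFP libraries, and the WT-GFP libraries differed more from each other for Tagln than for the other genes. The fold changes were 3.42 for Acta2 (log2 1.77, standard error 0.21, adjusted p 0.00118), 3.58 for Cnn1 (1.84, 0.23, 0.000471) and 2.70 for Tagln (1.43, 0.21, 0.0036). Myl9, a regulatory light chain of myosin, had 48.4 and 43.5 CPM against 25.5 and 15.5 CPM, 1.19 on the log2 scale (adjusted p 0.00161). Actg2, for enteric smooth-muscle actin, had 2.73 and 2.39 CPM against 0.88 and 0.538 CPM (1.87, 0.0036), a level at which few reads were counted and at which reads can be shared with other actin genes.

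The promoters of Acta2 and Myl9 are shown because both genes rose in the full fit and in each fit without a WT library, and each window holds a pair of sites that resemble the CArG box bound by SRF. They run 5′ to 3′ from 250 bases before to 50 bases after the RefSeq start (GRCm38.p6, the build of mm10), at chr19:34255324-34255623 on the minus strand and chr2:156775214-156775513 on the plus strand. Capitals mark the boxes, CC and GG around 6 bases of which at least 5 are A or T, which begin at positions 167 and 217 of the Acta2 window and 90 and 152 of the Myl9 window.
Acta2: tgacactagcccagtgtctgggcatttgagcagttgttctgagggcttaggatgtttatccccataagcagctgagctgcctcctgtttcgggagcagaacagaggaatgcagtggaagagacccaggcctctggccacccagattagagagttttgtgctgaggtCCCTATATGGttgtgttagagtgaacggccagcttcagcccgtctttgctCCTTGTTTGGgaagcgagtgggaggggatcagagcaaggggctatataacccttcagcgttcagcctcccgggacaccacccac
Myl9: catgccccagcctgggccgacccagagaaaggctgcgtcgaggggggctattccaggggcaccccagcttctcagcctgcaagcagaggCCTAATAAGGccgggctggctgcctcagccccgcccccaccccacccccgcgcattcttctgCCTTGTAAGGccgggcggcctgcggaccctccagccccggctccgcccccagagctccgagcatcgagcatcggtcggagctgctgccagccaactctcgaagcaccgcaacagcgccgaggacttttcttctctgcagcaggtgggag
Of 6 contractile genes that rose and had a promoter in the RefSeq table, these 2 (33.3%) held such a box, as did 10% of all 27025 promoters, 10.4% of 241 genes that rose and 12.3% of 333 that fell. A match is a description of letters, read on both strands with overlaps counted, and does not show binding.

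Across the contractile list, 8 of 19 genes tested rose (2.35% of all genes tested did) and 1 fell (3.26%), with a median log2 fold change of 0.30 beside −0.01 over all genes tested. Smaller increases were seen in Filip1l (0.53), the tropomyosin gene Tpm2 (0.52) and the actin crosslinker gene Actn1 (0.47). Mylk, for myosin light-chain kinase, fell, from 109 and 136 CPM in WT-GFP to 47.3 and 56.6 CPM in WT-Cre (−1.23, adjusted p 0.00687). Flna, with the most reads of the list, had a log2 fold change of 0.38 and did not pass (adjusted p 0.105). Without a WT library the number that rose was 6, 6 and 7, and it was 4 without WT-GFP replicate 2, and the median was 0.57 without WT-GFP replicate 1. In EV, 15 rose and 1 fell, beside 21.2% and 21.8% of all genes, with a median of 0.92. The difference between WT and EV passed for 5 of the 19 (17.3% of all genes), with the effect in WT below that in EV for 4 and above it for 1. It passed for Acta2 (−1.16, adjusted p 0.0197) and did not for Cnn1 (−0.43, 0.399), Tagln (−0.80, 0.075) or Myl9 (−0.32, 0.361). Among 20 targets of YAP and TEAD, factors that respond to cell tension and density, 1 rose in WT, the ectoenzyme gene Nt5e (0.66, adjusted p 0.0138), beside 2.35% of all genes, and the median was 0.17. In EV 18 rose (21.2% of all genes) and 1 fell, with a median of 1.08, and the difference passed for 12 of the 20 (17.3% of all genes), each of them lower in WT.

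**Figure D2:**
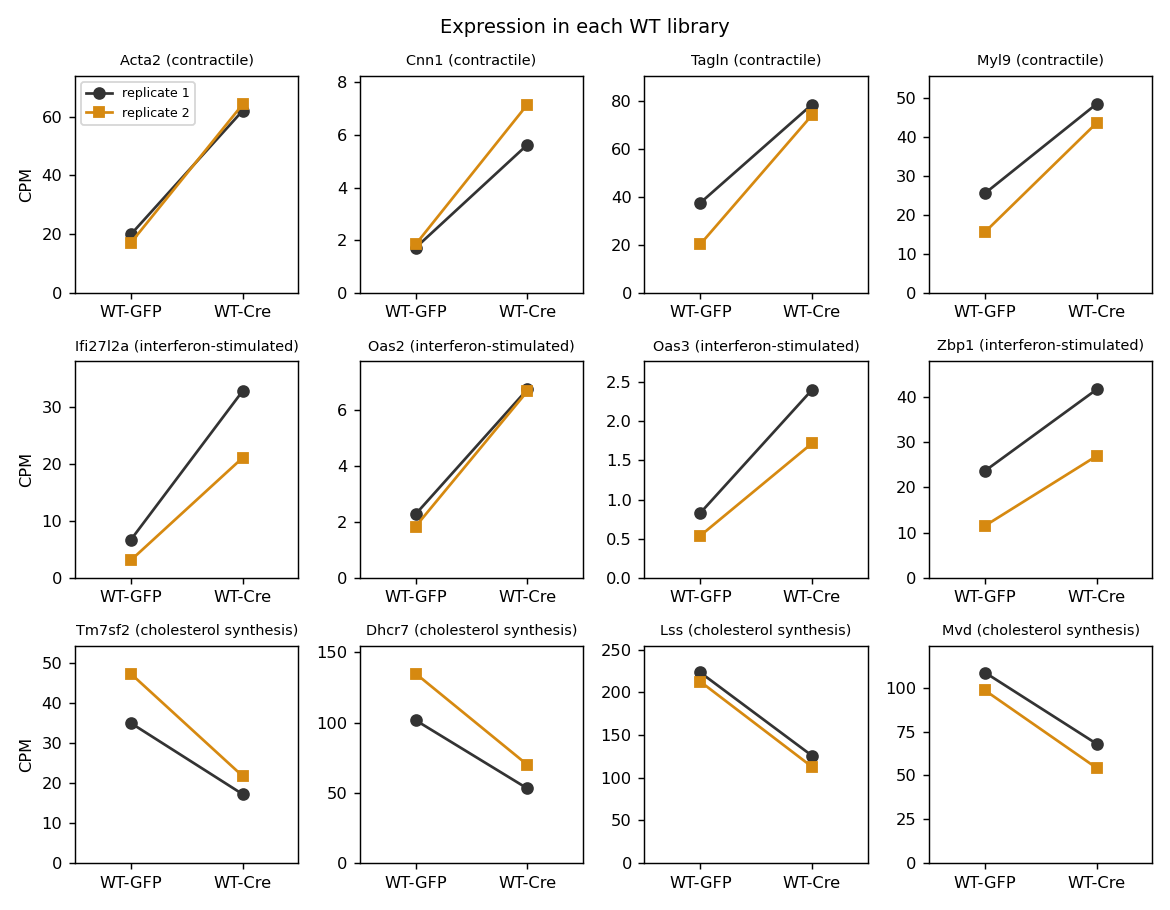
CPM of 12 genes in each of the 4 WT libraries, with a line joining the WT-GFP and WT-Cre library of each replicate number (circles replicate 1, squares replicate 2; each axis starts at 0). All contractile and interferon-stimulated genes drawn lie higher and all cholesterol genes lower with Ad-Cre in both pairs.

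Of the interferon-stimulated genes, which cells switch on after sensing nucleic acid or interferon, 16 of 50 rose with Ad-Cre. Ifi27l2a had 32.7 and 21.0 CPM in WT-Cre and 6.68 and 3.09 CPM in WT-GFP, a 5.60-fold difference (log2 2.49, standard error 0.36, adjusted p 0.0036), the largest among the genes with at least 50 counts on average. Oas2, for an enzyme that makes 2′-5′ oligoadenylate from double-stranded RNA, had 6.75 and 6.68 CPM against 2.28 and 1.84 CPM (1.73, adjusted p 0.0136). Zbp1, for a sensor of Z-form nucleic acid, had 41.7 and 27.0 CPM against 23.7 and 11.5 CPM (1.00, 0.031). The groups did not overlap for any of the 3, and in each gene replicate 1 was above replicate 2 under both viruses, only slightly for Oas2 in WT-Cre. Oas3 (1.59), Oasl1 (1.40), the mitochondrial nucleotide kinase gene Cmpk2 (0.95), the helicase gene Ddx60 (0.92) and Oas1a (0.77) also rose, and since the Oas genes are close copies of each other, how their reads were shared is uncertain. The weakest increases were in the RNA sensor gene Ddx58 (0.34) and the kinase gene Eif2ak2 (0.26).

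All 50 listed interferon-stimulated genes were tested, and beside the 16 that rose (2.35% of all genes did) none fell, 34 did not pass, and the median was 0.50. In 30 the groups did not overlap with Ad-Cre higher, which was so for 18.7% of all genes tested. Isg15 (0.82, adjusted p 0.193) and Ifit1 (0.79, 0.0996) did not pass. Ifitm3, with the most reads, had 0.24 (0.269). The list's summed level was 4740 and 4230 CPM in WT-Cre and 3600 and 2810 CPM in WT-GFP. The count depended on the libraries: 5 and 3 rose without replicate 1 or 2 of WT-Cre, 10 and 2 without replicate 1 or 2 of WT-GFP, and none without the block. In EV 39 rose (21.2% of all genes) and none fell, with a median of 0.84. The difference between WT and EV passed for 7 of the 50, not above the 17.3% of all genes. The effect in WT lay above that in EV for 2 of them, Ifit2 (0.56 in WT and 0.17 in EV) and Samd9l (0.53 and 0.10). For the other 5 it lay below that in EV. Of 20 genes of MHC class I and antigen processing, 2 rose (2.35% of all genes did), the immunoproteasome subunit genes Psmb8 (1.14, adjusted p 0.0144) and Psmb9 (1.09, 0.0146). None fell, the median was 0.18, and 4 had an unadjusted p under 0.05 (22.5% of all genes tested did).

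The promoter of Oas3 is shown as an example of a tandem GAAA, the letters GAAA repeated after 2 bases of any kind, which interferon regulatory factors are known to bind. The window has the same length and source, at chr5:120777610-120777909 on the minus strand, with the match in capitals at position 176.
Oas3: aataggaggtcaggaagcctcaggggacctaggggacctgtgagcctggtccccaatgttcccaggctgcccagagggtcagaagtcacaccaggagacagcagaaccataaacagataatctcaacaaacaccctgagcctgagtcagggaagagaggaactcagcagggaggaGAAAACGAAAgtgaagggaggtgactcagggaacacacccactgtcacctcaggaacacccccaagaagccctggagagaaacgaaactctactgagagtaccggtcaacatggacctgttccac
The letters were in 6 of 12 promoters of interferon-stimulated genes that rose (50%), in 3.49% of all promoters, 7.88% of those of genes that rose and 2.4% of those of genes that fell.

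Sprr1a, a cornified envelope gene that is also induced in injured and stressed cells, had 68.5 and 52.6 CPM in WT-Cre and 19.7 and 15.9 CPM in WT-GFP. The groups were far apart, and the log2 fold change, 1.77 with a standard error of 0.15 (adjusted p 2.87e-05), did not differ from the 2.18 in EV at the threshold (difference −0.41, adjusted p 0.188). It lies on chromosome 3 from 92483952 to 92485895. Of 9 cornified envelope genes tested, Sprr2g was the other that rose (1.53, adjusted p 0.0378; 2.35% of all genes rose), from few reads and with similar neighbours in the Sprr cluster. The Sprr1a promoter, at chr3:92485832-92486131 on the minus strand, is shown for its pair of TGANTCA sites, the letters of AP-1, in capitals at positions 105 and 135.
Sprr1a: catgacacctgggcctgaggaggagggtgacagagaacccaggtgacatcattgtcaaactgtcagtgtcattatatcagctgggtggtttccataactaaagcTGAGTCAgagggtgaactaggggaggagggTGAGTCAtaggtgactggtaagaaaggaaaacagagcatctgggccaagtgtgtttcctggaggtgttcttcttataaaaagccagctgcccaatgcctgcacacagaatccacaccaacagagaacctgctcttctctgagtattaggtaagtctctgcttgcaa
TGANTCA was in 7.93% of all promoters, 5.24% of those of the genes tested, 10.8% of those of genes that rose and 6.31% of those of genes that fell.

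Of the genes tied to growth-factor signalling, a minority rose. Klf4, for a transcription factor, had 73.9 and 64.2 CPM in WT-Cre and 45.5 and 35.8 CPM in WT-GFP (log2 fold change 0.77, standard error 0.11, adjusted p 0.000949). The immediate early gene Ier5 (0.45) and Myc (0.47) rose as well, so that 3 of 23 immediate early and AP-1 genes rose (2.35% of all genes did) and none fell, whereas Fosl2, with the most reads, had 0.00 and did not pass. Of 18 genes that report ERK activity or feed back on it, 4 rose, beside the same 2.35%: the transcription factor genes Etv4 (0.92) and Etv5 (0.90), the ligand gene Ereg (0.55) and the inhibitor gene Spred2 (0.41). In EV 14 of these 18 rose (21.2% of all genes), with a median of 1.10 beside 0.28 in WT, and the difference passed for 9 (17.3% of all genes), each lower in WT. Of 24 kinase genes of the PI3K-AKT and RAF-MEK-ERK pathways, 2 rose, Pik3cb (0.47) among them, and none fell, beside 2.35% of all genes that rose, with a median of 0.04.

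Among secreted signals, the chemokine gene Ccl5 had 50.9 and 40.0 CPM in WT-Cre and 25.5 and 19.7 CPM in WT-GFP, a 2.02-fold difference (log2 1.01, standard error 0.10, adjusted p 4.66e-05). In EV its log2 fold change was 0.11 (adjusted p 0.398), and the difference between these constructs passed (0.90, adjusted p 0.000473). The rise was not particular to WT, with 1.03 in MT194 (adjusted p 1.65e-06) and 1.13 in MT486 (1.05e-06), beside 0.11 in DMT (0.387). Cxcl10 (0.82), the receptor antagonist gene Il1rn (0.57) and Cxcl2 (0.57) rose, and 21 of the 25 chemokine and acute-phase genes tested did not pass, beside 2.35% of all genes that rose. Cxcl12, with the most reads, had −0.22 (adjusted p 0.601). Of 22 ligands and response genes of TGF-β, Inhba (0.81) and the corepressor gene Skil (0.51) rose, and Tgfbi (−0.63) and Id3 (−0.36) fell, beside 2.35% of all genes that rose and 3.26% that fell.

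Cholesterol synthesis and uptake was the list with the most genes that fell. Tm7sf2, for a sterol reductase, had 17.2 and 21.8 CPM in WT-Cre and 35.0 and 47.3 CPM in WT-GFP, a 2.10-fold decrease (log2 −1.07, standard error 0.12, adjusted p 0.000181). Dhcr7, for the reductase of the last step, had 53.1 and 70.0 CPM against 102 and 135 CPM (−0.94, 0.08, 1.49e-05). Lss, for lanosterol synthase, had 126 and 113 CPM against 223 and 212 CPM (−0.87, 0.13, 0.00264). In each gene both WT-Cre libraries lay below both WT-GFP libraries. Mvd (−0.78), Hsd17b7 (−0.72), Nsdhl (−0.71), Hmgcs1 (−0.68) and Mvk (−0.66) fell too. All 25 genes of the list had a log2 fold change below 0, with a median of −0.62, and 10 fell at the threshold (3.26% of all genes tested did). Srebf2, for the transcription factor of the pathway and the member with the most reads, had −0.28 (adjusted p 0.167) and did not pass.

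In EV all 25 cholesterol genes fell (21.8% of all genes did), with a median of −2.85, and the difference between WT and EV passed for each of the 25 (17.3% of all genes), always with the smaller decrease in WT. For Mvd, for an enzyme of the mevalonate pathway, the values were −0.78 in WT and −3.53 in EV (difference 2.76, adjusted p 6.45e-07). The number of cholesterol genes that fell in WT was 6 and 5 without replicate 1 or 2 of WT-Cre, and 8 and 3 without replicate 1 or 2 of WT-GFP. Of 20 genes of fatty acid synthesis and desaturation, 7 fell (3.26% of all genes tested did) and none rose, with a median of −0.31. The desaturase gene Scd2 had 2095 and 2702 CPM in WT-Cre and 2994 and 3768 CPM in WT-GFP (−0.50, adjusted p 0.0231), and its relative Scd1 had −0.61 (0.0036). Acss2 (−0.71), Acly (−0.52) and Fasn (−0.34), for enzymes that supply acetyl-CoA and build fatty acids, fell, as did Lpin1 (−0.45) and Fads1 (−0.43). The count was 4 and 2 without replicate 1 or 2 of WT-Cre, 5 without replicate 1 of WT-GFP and 0 without its replicate 2.

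Of 26 genes of the citrate cycle and its isocitrate branch, 3 fell (3.26% of all genes tested did), Idh1 (−0.62) and Idh2 (−0.35) among them, and the median was −0.08. Of 71 nuclear genes of oxidative phosphorylation none passed by edgeR or DESeq2, with a median of −0.06 and 5 at an unadjusted p under 0.05 (22.5% of all genes tested), whereas 44 fell in EV (21.8% of all genes) with a median of −0.36. Of 28 genes of hypoxia and glycolysis, Ldha rose (0.37) and Ndrg1 (−0.66), Eno2 (−0.47) and Pfkm (−0.34) fell. These stand beside 2.35% of all genes that rose and 3.26% that fell, and for Eno2 the groups overlapped. Among 23 genes of the ATF4 stress program and serine synthesis, 5 rose (beside 2.35% of all genes), the amino acid transporter gene Slc7a5 (0.79), the enzyme genes Shmt2 (0.63), Psat1 (0.62), Mthfd2 (0.44) and Phgdh (0.42), and none fell. None of 22 NRF2 antioxidant genes passed, with a median of 0.05 and 2 at an unadjusted p under 0.05 (again beside 22.5% of all genes). DESeq2 with the block called 1 lower, in a fit that called 602 of the 13805 genes tested lower. In EV 16 of them rose (21.2% of all genes) and 1 fell, and the difference passed for 14 (17.3% of all genes). Hmox1, for heme oxygenase, had a log2 fold change of −0.22 in WT and 1.80 in EV (adjusted p of the difference 0.00033).

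**Figure D3:**
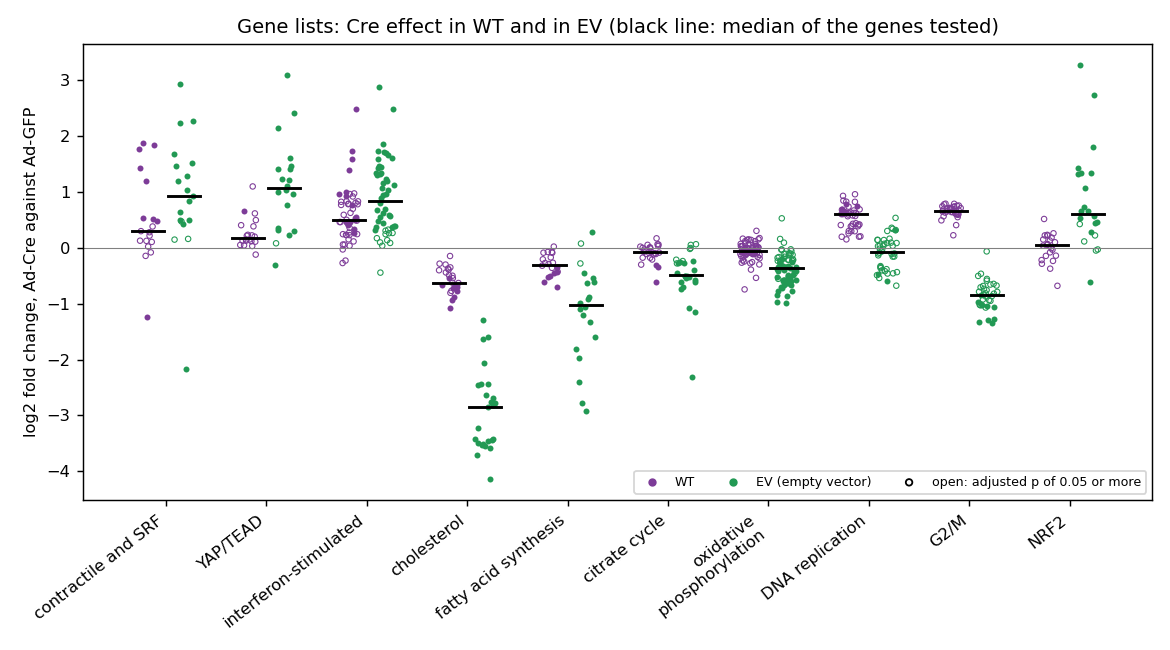
Log2 fold change of Ad-Cre against Ad-GFP for each gene tested of 10 lists, in WT (purple) and EV (green), with filled points for an adjusted p under 0.05, open points for the rest and a black line at the median. The cholesterol genes lie below 0 in both, around −0.62 in WT and −2.85 in EV, and the G2/M genes lie above 0 in WT and below 0 in EV.

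Genes of the cell cycle had higher values with Ad-Cre in WT, although few passed. All 42 genes of DNA replication and S phase had a log2 fold change above 0, with a median of 0.60, in 41 the groups did not overlap with Ad-Cre higher (18.7% of all genes tested), and 4 rose (2.35% of all genes): Gins2 (0.78), Prim2 (0.75), Mcm2 (0.70) and Rfc5 (0.63). Mcm2, for a subunit of the replicative helicase, had 118 and 114 CPM in WT-Cre and 78.3 and 65.8 CPM in WT-GFP, with an adjusted p of 0.0498, close to the threshold. DESeq2 with the block called 14 of the 42 higher, in a fit that called 438 of the 13805 genes tested higher. None of the 4 passed in all fits without a WT library. All 35 genes of G2/M and the mitotic spindle were higher without overlap, beside the same 18.7%, with a median of 0.66 (0.67 in both pairs), but none passed by edgeR or DESeq2, and 6 had an unadjusted p under 0.05, a smaller share than the 22.5% of all genes tested. Mki67, a marker of cycling cells and the member with the most reads, had 331 and 546 CPM in WT-Cre and 223 and 304 CPM in WT-GFP (log2 fold change 0.71, standard error 0.39, adjusted p 0.308). In EV 10 of the 35 fell (21.8% of all genes did) and none rose, with a median of −0.84, and the difference between WT and EV passed for 13 (17.3% of all genes), each higher in WT. For the S-phase genes the median in EV was −0.08, with 1 that rose and 2 that fell, fewer than the 21.2% and 21.8% of all genes, and the difference passed for 8, close to the background of 17.3%. Of 30 targets of Trp53, a regulator of arrest, Eda2r (0.77), Plk2 (0.49), Zmat3 (0.38) and Phlda3 (0.38) rose, and Ddit4l (−1.27) and Sesn1 (−0.38) fell. These 4 and 2 stand beside 2.35% of all genes that rose and 3.26% that fell. Cdkn1a, for the inhibitor p21, had 24.3 and 21.7 CPM in WT-Cre and 12.01 and 13.4 CPM in WT-GFP (0.84, adjusted p 0.0826) and did not pass.

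The 12 largest decreases among the genes with at least 50 counts on average included a surface enzyme, a growth factor and a filament protein. Anpep, for a surface aminopeptidase, lies on chromosome 7 from 79821803 to 79861059 and had 16.3 and 20.3 CPM in WT-Cre and 45.2 and 61.9 CPM in WT-GFP (log2 fold change −1.54, standard error 0.26, adjusted p 0.00688). Igf1, for insulin-like growth factor 1, had 4.18 and 3.24 CPM against 9.68 and 11.2 CPM (−1.47, 0.26, 0.00476). Synm, for the intermediate filament protein synemin, had 3.85 and 4.48 CPM against 10.3 and 11.4 CPM (−1.38, 0.19, 0.000949). None of these groups overlapped, and the difference from EV passed for all 3, with the larger decrease in EV (−3.79, −3.15 and −2.53). Agt, for angiotensinogen, had 49.2 and 69.1 CPM against 112 and 170 CPM (−1.24, adjusted p 0.0114). Srgn (−1.56), Spib (−1.41), C1rb (−1.33), Cdo1 (−1.31), C430049B03Rik (−1.31), Fam198a (−1.29) and Lctl (−1.24) fell as well. The difference from EV passed for Spib and Cdo1 but not for Agt, Srgn, C1rb, C430049B03Rik, Fam198a or Lctl. For C1rb and Lctl the larger decrease was in WT (−1.20 and −0.40 in EV). C1rb has a close copy, C1ra, with which it may share reads. The other large increases were in Arc (1.74), an immediate early gene of neurons that fibroblasts also induce, Fam65b (1.57), Gbp4 (1.40), for an interferon-induced GTPase of a family of similar copies, Prelp (1.31), for a matrix proteoglycan, Phf11b (1.23) and Arhgap36 (1.22).

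Of 34 collagen and fibroblast matrix genes, 14 had an unadjusted p under 0.05 (22.5% of all genes tested did). At the threshold Col12a1 (0.66), the elastic fibre gene Fbln5 (0.59) and the tenascin gene Tnc (0.49) rose (2.35% of all genes did) and none fell, and Fn1, with the most reads, had 0.40 (adjusted p 0.171). Timp3, an inhibitor of metalloproteinases, had 313 and 385 CPM in WT-Cre and 180 and 155 CPM in WT-GFP (1.01, adjusted p 0.0222), and Mmp9 fell (−1.11, 0.0403) from few reads, among 16 metalloproteinase and inhibitor genes tested. That is 1 that rose and 1 that fell, beside 2.35% and 3.26% of all genes. Of 18 heat shock genes Hsp90aa1 rose (0.44, 0.00316), beside 2.35% of all genes, and none fell. Of 77 cytosolic ribosomal protein genes none passed by edgeR or DESeq2, with a median of 0.14 and 10 at an unadjusted p under 0.05, where 22.5% of all genes tested lay.

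Set beside the empty vector, most of the residue ran in the same direction. EV shares no library with WT. Both have replicates 1 and 2, but the labels do not say that a number marks the same experiment in both. Of the 775 genes that passed in WT, 583 also passed in EV in the same direction, which is 75.2% of those of WT and 9.82% of those of EV, beside 21.2% of all genes that rose and 21.8% that fell in EV; 13 passed in the other direction and 179 did not pass in EV. For the 583 genes the median ratio of the log2 fold change in WT to that in EV was 0.642, over genes selected for passing in both. The difference between the effects in WT and EV passed for 2388 of all genes tested, for 94 without the block, and for 1332 and 1272 without WT-Cre replicate 2 or WT-GFP replicate 1. The count was 1171 and 1188 without EV-Cre replicate 2 or EV-GFP replicate 2. It passed for 250 of the 775, with a smaller effect of the same sign in WT for 181, a larger one for 11 and opposite signs for 58. For the other 525 it did not pass, which does not show that the effects were alike.

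**Figure D4:**
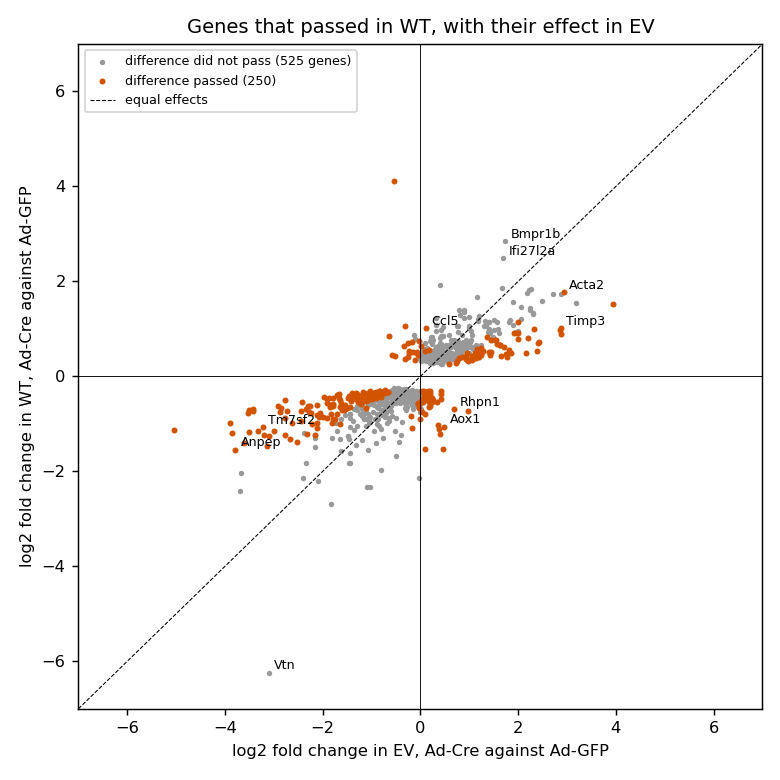
Log2 fold change of Ad-Cre against Ad-GFP in EV (horizontal axis) and WT (vertical axis) for the 775 genes that passed in WT, with orange points where the difference passed (250) and grey points where it did not (525). Most orange points lie between the dashed line of equal effects and the horizontal axis; Ccl5, Rhpn1 and Aox1 lie near or across the vertical axis.

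Ccl5 was among the 11 genes with a larger effect in WT than in EV, and Plac8, Aox1, Rhpn1 and Stx16 were among the 58 with opposite signs. Plac8, a small cysteine-rich protein gene, had 449 and 388 CPM in WT-Cre and 298 and 220 CPM in WT-GFP (0.71, adjusted p 0.0022), against −0.26 in EV (0.0658), and the difference passed (0.97, adjusted p 0.000518). Plac8 rose in MT486 too (0.64, adjusted p 0.000588). Aox1, for aldehyde oxidase, had 1.78 and 3.05 CPM in WT-Cre and 4.66 and 5.24 CPM in WT-GFP (−1.06, 0.00398) and rose in EV (0.49, 0.0235). It also fell in MT486 (−0.92, adjusted p 0.00114) and DMT (−0.47, 0.0206). Rhpn1, for rhophilin, fell in WT (−0.70, 0.0135) and rose in EV (0.69, 0.00107). Stx16, for a syntaxin of vesicle transport, fell in WT (−0.31, 0.0414) and rose in EV (0.43, 0.000587) and in MT194 (0.27, 0.026). For Aox1, Rhpn1 and Stx16 the signs were opposite and the differences passed (adjusted p 0.000507, 0.000344 and 0.000579).

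The labelled cell type was checked against markers. All 14 fibroblast markers had reads in at least 1 of the 4 libraries, and 13 were tested, with sums of 24700 and 33900 CPM in WT-Cre and 23400 and 28600 CPM in WT-GFP. Of these Twist2 rose (0.52, adjusted p 0.016), beside 2.35% of all genes, and Thy1, a surface marker of many fibroblasts, had at most 2 reads in a library. Of 13 epithelial markers 2 were tested, and Krt19, the most abundant, rose (1.27, adjusted p 0.0161) at 3.39 and 2.58 CPM against 1.66 and 0.851 CPM. The sum over that list was 4.14 and 3.34 CPM in WT-Cre and 2.23 and 2.02 CPM in WT-GFP, 6 of the 13 were at 0 in all 4 libraries, and the defining marker Epcam had at most 1 read. None of the endothelial, blood cell, skeletal muscle or neural markers passed. Skeletal muscle markers summed to 1.74 and 1.43 CPM in WT-Cre and 0.88 and 1.21 CPM in WT-GFP, with 7 of the 10 in the files at 0 in all libraries, Myod1 and Myog among them, and Tnnc2, the most abundant, at 1.58 (adjusted p 0.053). Blood cell markers summed to 355 and 412 CPM against 394 and 431 CPM, nearly all from Cd14, with at most 1 read of Ptprc. The part of these markers in the other results was not tested.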

How the data were processed

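RNA-seq counts from 4 WT libraries were compared, with 16 companion populations in the fit, and 15 clone libraries of the series were not used. The authors aligned reads of 50 bp to mm10 with Bowtie2, skipped alignments with a mapping quality below 30 after sorting with SAMtools, counted reads per gene with HTSeq, and used DESeq2. The deposited values are raw counts for 24421 genes by symbol; versions and the strand setting of the counting are not given in the sources used here, so reads of overlapping antisense genes may not be separated. Of the 5 lines that name no gene, the line for reads on no gene held 11.7% and 15.2% of all counts in WT-Cre. In WT-GFP it held 13.7% and 16.7%, and all 5 lines were left out.

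Genes were filtered with filterByExpr and normalized by TMM in edgeR 4.0.16 (R 4.3.3), and the quasi-likelihood test, with p-values adjusted by Benjamini-Hochberg over 13805 genes, was fitted to 20 libraries with 1 mean per group (10 groups) and the replicate number as a block. CPM used the TMM library sizes. Samples with the same number deviated from their group means together in 45 of 45 pairs of groups (r from 0.42 to 0.73, median 0.586, and 0.482 for WT-Cre with WT-GFP). The study describes 2 independent experiments, which is where the pairing comes from. The labels do not say that a number marks the same experiment in every construct. The 2 libraries of a group differed by more than sampling noise. The effects in WT and EV were compared by an interaction contrast. Alternatives were no block, DESeq2 1.42.0, smaller sets of libraries, another scaling, no filter and leaving out each library. The steps were tested on simulated data.

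Named were the NELF genes; genes called without the block; the 12 largest changes in each direction among genes with a log2 fold change over 1, groups without overlap and an average of 50 counts or more; in each of 31 lists up to 4 genes that passed and the member with the most reads; and the 5 smallest adjusted p for effects larger, and for effects smaller, in WT than in EV. Results for a few genes that the rule selects are not reported here. The rest of the genes given were named after their values were seen. The comparison and the lists were chosen with earlier results of these data known. Coordinates are from GENCODE on mm10. Promoters were matched by symbol to RefSeq (GRCm38.p6) for 10349 of the genes tested, and the letters searched were the CArG-like box, tandem GAAA and TGANTCA, with CATTCC for TEAD in 12.2% of promoters of the genes tested, 13.3% of those that rose and 12% of those that fell, and the strict CArG box in 1.34%, 1.66% and 2.4%.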

Additional observations from a re-analysis of the deposited data

Results flagged for a closer look

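For each gene below the Cre effect in WT and that in EV differed, and the test of the difference itself passed at an adjusted p under 0.05 (edgeR's quasi-likelihood test of the interaction, Benjamini-Hochberg adjustment). Values are the effect in WT minus that in EV on the log2 scale. The weight of any technical or biological cause was not tested.

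Metabolic genes fell less in WT than in EV, by 2.15 for Tm7sf2, 1.51 for Dhcr7, 1.90 for Lss and 2.76 for Mvd in the cholesterol pathway. The same held for Scd1 (2.30), Scd2 (2.27), Acss2 (0.89) and Acly (0.68) in fatty acid synthesis, and for Idh1 (1.69), Idh2 (0.72), Pfkm (0.39) and Sesn1 (1.30). The difference was 2.27 for Nelfb, 1.77 for Srebf2, 0.60 for Atp5b and 0.90 for Rplp0, none of which passed in WT alone. Among the genes with the largest decreases in WT it was 2.25 for Anpep, 1.68 for Igf1, 2.20 for Spib, 1.15 for Synm, 1.36 for Cdo1 and 1.83 for Ddit4l, and it was 1.63 for Tgfbi.

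Genes that rose less in WT than in EV were Acta2 (−1.16), Inhba (−1.39), Skil (−0.90), Sprr2g (−2.42), Plk2 (−1.68), Slc7a5 (−1.22), Col12a1 (−0.98), Timp3 (−1.86), Klf4 (−0.75), Myc (−1.27), Ier5 (−0.98), Etv4 (−1.06), Etv5 (−1.01), Ereg (−1.85) and Cxcl10 (−0.55). Fosl2, which did not pass in WT alone, had −0.59. The effect was larger in WT, or of the opposite sign, for Ccl5 (0.90), Plac8 (0.97), Prim2 (0.78), Rfc5 (0.96), Rhpn1 (−1.39), Aox1 (−1.55) and Stx16 (−0.74).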

How the results depend on the processing

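Scaling by DESeq2's size factors, no filter on low counts, a replicate block per construct (chosen after the data were seen) and DESeq2 with the block gave 796, 716, 556 and 1040 genes that passed in WT beside 775. None of the 87 named genes that passed changed direction in any setting run, and 12 of them passed in every blocked fit to all companion populations, with and without each WT library. The replicate block decided most calls. Without it 3 genes passed, 3 higher and 0 lower, all 3 over 1 log2 unit, and 94 passed for the difference between WT and EV. DESeq2 without the block gave 81, 30 higher and 51 lower, and 28, 15 and 13 over 1 log2 unit. The 4 WT libraries alone gave 4146 with the block, 2022 higher and 2124 lower, and 195, 83 and 112 over 1 log2 unit, in a fit with 1 residual degree of freedom. They gave 1 without the block, 1 higher and 0 lower. The 8 WT and EV libraries with the block gave 1412, 617 higher and 795 lower. A limit of 0.5 in place of 1 gave 426, 185 higher and 241 lower. Leaving out 1 WT library gave 49 to 449 genes, 19 to 178 higher and 30 to 271 lower, and 15 to 102, 7 to 51 and 8 to 54 over 1 log2 unit. Leaving out 1 WT or EV library gave 1171 to 2117 for the difference.

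In the lists, without the block 2 contractile, 0 interferon-stimulated, 0 cholesterol and 0 fatty acid genes passed in the direction given. DESeq2 without the block gave 3, 3 and 2 for the last 3 lists, the WT libraries alone with the block 41, 24 and 14 and without it 0, 0 and 0 (1 contractile), the WT and EV libraries 31, 19 and 11, and a block per construct 10 for interferon-stimulated genes. Leaving out a library gave 4 to 7 contractile, 2 to 10 interferon-stimulated, 3 to 8 cholesterol and 0 to 5 fatty acid genes. With every library of a fit kept, the log2 medians stayed near their values: cholesterol −0.63 with either use of DESeq2, fatty acid −0.31 and G2/M 0.65 to 0.67 (0.668 without the block, 0.654 with DESeq2 or its size factors, 0.667 in WT alone or with a block per construct and 0.664 in WT and EV). Without a library they ran from 0.21 to 0.57 (contractile), −0.66 to −0.49 (cholesterol), −0.38 to −0.27 (fatty acid), 0.50 to 0.68 (S phase) and 0.53 to 0.82 (G2/M). The cause of these shifts was not tested. With 2 libraries per group, a gene with few reads could be called only at a large fold change.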
